A study of Mus musculus with 6 samples.

Results

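The nuclear receptor family was followed here in the RNA of mouse hepatocytes, the parenchymal cells of the liver. Nuclear receptors are transcription factors that most often sense small fat-soluble ligands, among them steroid and thyroid hormones, retinoic acid, fatty acids, oxysterols, bile acids and foreign compounds, and many bind DNA as heterodimers with a retinoid X receptor (RXR). In the liver they set the genes of lipid, bile acid, glucose and drug metabolism, and the orphan receptor HNF4A is a main regulator of hepatocyte identity. The members were 47 receptor genes taken from a fixed list of symbols, out of 48353 genes in the deposited files. Each of the 47 symbols matched a single gene identifier.

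The samples were hepatocytes isolated by collagenase perfusion from C57BL/6 mice, with 3 libraries from Bim knock-out hepatocytes and 3 from wild-type hepatocytes. In the knock-out the Bim gene (symbol Bcl2l11), whose protein promotes cell death by apoptosis, was removed by crossing floxed mice to Alb-Cre mice, in which the albumin promoter, active in hepatocytes, drives the Cre recombinase. The labels do not say whether the wild-type mice carried floxed alleles or Cre. Chow and high-fat feeding are both named, but not which sample had which diet. Nor is it said that each library had its own animal, so that the p-values reflect the spread among these libraries alone, which could be technical. The series title concerns the action of BIM downstream of the kinase JNK in hepatic oxidative stress, steatosis and insulin resistance.

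The libraries held 25335211 to 31130519 estimated reads of polyadenylated RNA. Bcl2l11 had 0 reads in each knock-out library, against 0, 680 and 478 in the wild-type libraries, so this check does not set wild-type replicate 1 apart from the knock-out. An exact 0 need not mean absence in these data, as set out below, so the zeros do not show the deletion either. With zeros kept as values, the limma p of Bcl2l11 was 0.0855 unadjusted and 0.941 adjusted. Wild-type replicate 1 stood apart in cell type markers: 12 of 12 macrophage markers were above 0 in it, and their sum was 5450 RPM (estimated reads scaled to a common library size, reads-per-million), against 91.2 to 193 in the knock-out libraries and 129 to 173 in the other wild-type libraries. In those other 5 libraries the macrophage markers Adgre1, Clec4f, Vsig4 and C1qc were listed at 0. Of 10 hepatocyte markers, 8 were above 0 in every library, while Tat and Pck1 were listed at 0 in all 6. Without Alb, which takes most of the sum, the hepatocyte markers came to 6251 to 7759 RPM in the knock-out libraries, and to 4693 in wild-type replicate 1 and 5629 to 8568 in the other wild-type libraries. Biliary markers came to 49.1 to 594 RPM, highest in knock-out replicate 2, and endothelial markers to 14.8 to 252 RPM, highest in wild-type replicate 1. Lymphoid and blood markers came to 361 RPM in wild-type replicate 1, through Ptprc, and to at most 0.158 RPM elsewhere. Stellate cell and fibroblast markers summed to at most 0.142 RPM in any library, with 8 of 10 listed at 0 in all 6. Interferon response genes were high in knock-out replicate 1 and wild-type replicate 2 (5289 and 5528 RPM, against 403 to 818 in the other libraries). The protocol speaks of male mice, but the female-specific RNA Xist had 25083 to 38904 reads in every library and the Y-linked genes Ddx3y, Kdm5d, Uty and Eif2s3y were listed at 0 in all 6. Less RNA of a receptor per cell and fewer cells expressing it cannot be told apart in such libraries.

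Of the 47 receptors, 8 were read in all 6 libraries, 19 in 1 to 5 libraries and 20 in none. Both the estimated reads and the RPKM (reads scaled by the authors to the size of the library and to transcript length in kilobases) were given per transcript by the authors, and they were summed here per gene. The library sizes implied by the RPKM were 19245556 to 21899881. They lay below the summed estimated reads, to which RPM was scaled. The estimated reads of a locus were an even number in 92.28% to 92.98% of whole totals, so they came mostly in steps of 2. An exact 0 in these files need not mean that a transcript was missing. Well-read loci were those above 0 in at least 3 libraries, with a median over 100 reads among the libraries not at 0. Of their library values, 0.02% were exactly 0 where the locus had 1 annotated transcript, and 18.02% where it had 2 or more. Among the 23 receptors with 2 or more transcripts that were read anywhere, 59 of 138 library values (42.8%) were listed at 0. These receptors were not filtered in that way and include some read in 1 or 2 libraries, so the 42.8% cannot be set against the 18.02%. The partly read receptors were mostly all or nothing: of the 12 with reads in 2 to 5 libraries, 10 had read numbers within 1.5 times of each other wherever they were read at all. Values of 0 for receptors with several transcripts are therefore given as listed, library by library, and any mean or difference that includes them is named as such.

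**Figure D1:**
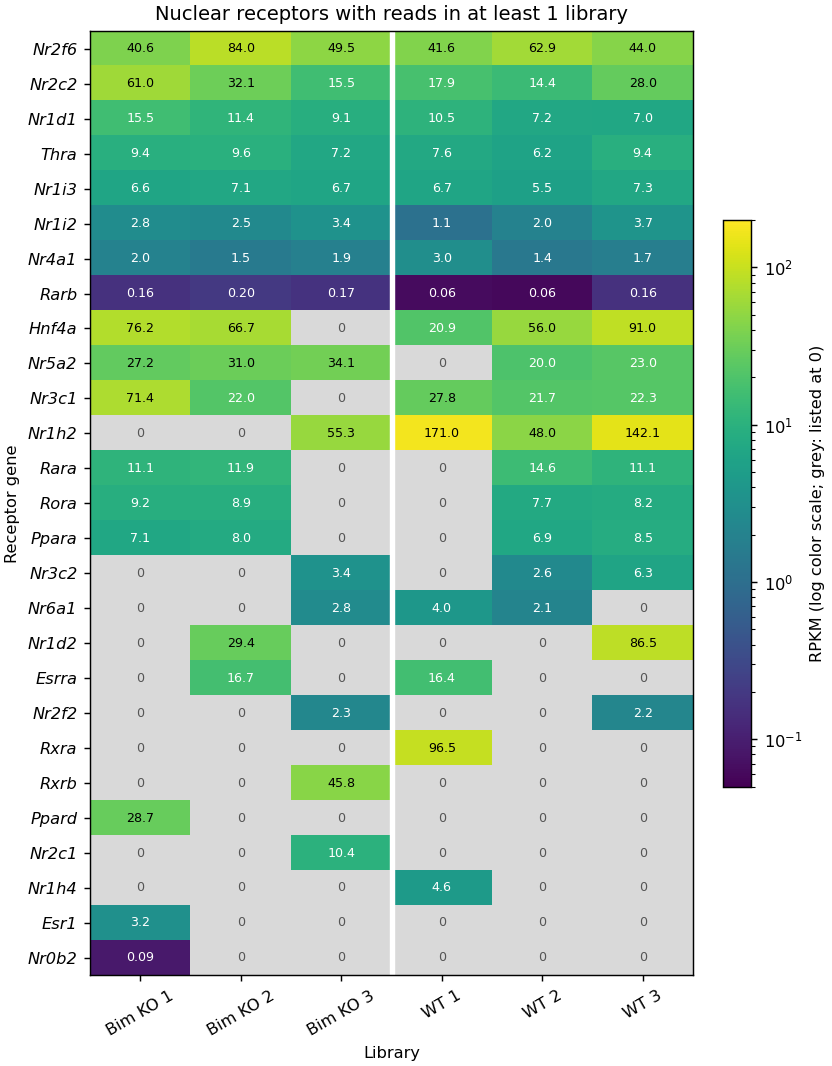
RPKM of the 27 receptors with reads in at least 1 library (rows) in the 3 Bim knock-out and 3 wild-type libraries (columns), on a logarithmic color scale with grey for a value listed at 0. The 8 top rows are read in every library. Each of the 19 rows below them has 1 or more values listed at 0, as Rora does beside values of 7.72 to 9.21 RPKM.

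Hnf4a and Rxra each have a pair of annotated start sites in RefSeq. Their reads were assigned to transcripts that begin at or near the downstream site of each. Such assignments differed between libraries for other receptors, so they do not show which start was used. The DNA before the sites is given for orientation. The windows hold the 250 bases before the start site on the plus strand of GRCm38.p6, the build of the files. Exact matches of AGGTCA, the core hexamer that many nuclear receptors bind, were searched on both strands, and matches are in capitals (TGACCT is the same word read on the other strand).
Hnf4a downstream start, chr2:163546905-163547154: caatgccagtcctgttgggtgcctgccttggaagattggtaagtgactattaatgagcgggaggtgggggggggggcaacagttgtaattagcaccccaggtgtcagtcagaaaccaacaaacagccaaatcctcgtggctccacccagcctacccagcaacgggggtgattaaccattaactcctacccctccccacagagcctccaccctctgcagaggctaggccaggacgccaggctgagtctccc
Hnf4a upstream start, chr2:163506607-163506856: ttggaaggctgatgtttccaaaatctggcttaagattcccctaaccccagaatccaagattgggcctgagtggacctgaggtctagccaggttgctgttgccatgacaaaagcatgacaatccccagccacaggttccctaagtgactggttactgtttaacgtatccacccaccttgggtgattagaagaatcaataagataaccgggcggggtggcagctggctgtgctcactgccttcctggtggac
Rxra downstream start, chr2:27709042-27709291: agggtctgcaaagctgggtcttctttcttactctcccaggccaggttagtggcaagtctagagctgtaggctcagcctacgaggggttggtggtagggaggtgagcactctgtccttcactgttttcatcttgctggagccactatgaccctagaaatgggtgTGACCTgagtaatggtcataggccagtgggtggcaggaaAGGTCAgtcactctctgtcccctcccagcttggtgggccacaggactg
The Rxra downstream window had 2 AGGTCA matches, and the upstream window of that gene had none. Neither Hnf4a window held one. Over all 32851 windows of this length in RefSeq, 14.0% held AGGTCA. Windows were found for 43 of the 47 receptors, and 11 of their 64 windows held it. A match describes letters only and does not show that a factor binds there.

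Hnf4a, the orphan receptor that maintains hepatocyte gene expression, was among the receptors with the highest levels. It had 76.2, 66.7 and 0 RPKM in the knock-out libraries, against 20.9, 56.0 and 91.0 RPKM in the wild-type libraries (6718, 5754 and 0 reads, against 1904, 5342 and 8140). The groups overlapped, and apart from the value listed at 0 the lowest was that of wild-type replicate 1, the library in which macrophage markers were highest and hepatocyte markers other than Alb lowest. How far that composition bears on Hnf4a was not tested. All of its reads were assigned to ENSMUST00000018094, a protein-coding transcript that runs from 163547188 to 163572905 on the plus strand of chromosome 2 and begins 33 bases after the downstream start site shown above. The single transcript that begins near the upstream start, ENSMUST00000143911, is 431 bases long and was listed at 0 in every library. The related Hnf4g was listed at 0 in all 6 libraries.

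Nr5a2 (LRH-1), an orphan receptor that takes part in bile acid and cholesterol metabolism, had 27.2, 31.0 and 34.1 RPKM in the knock-out libraries, against 0, 20.0 and 23.0 RPKM in the wild-type libraries. The groups did not overlap, with or without the value listed at 0, which was that of wild-type replicate 1. With exact zeros kept as values, 5.46% of all 11021 genes tested had groups that did not overlap. The share without zeros was not computed. With such zeros taken as missing, the difference (knock-out minus wild-type) was 0.49 on the log2(RPKM + 1) scale (SE 0.16, limma; n = 3 and 2), with an unadjusted p of 0.0284 and an adjusted p of 0.999. In that fit 2.67% of all 7374 genes had an unadjusted p below 0.05, and 0% were called. The reads of Nr5a2 lay closer, at 1896, 2114 and 1616 in the knock-out libraries, against 1510 and 1656 in wild-type replicates 2 and 3. In knock-out replicate 3, 44.0% of them were on a transcript of 1756 bases, where the other read libraries used mainly one of 3446 bases. Nr5a1 (SF-1), the paralogue of steroid-producing tissues, was listed at 0 throughout.

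The lipid, bile acid and drug sensors that pair with RXR were read unevenly. Ppara, the fatty acid sensor that drives fat oxidation in the fasted liver, had 7.07, 8.04 and 0 RPKM in the knock-out libraries, against 0, 6.93 and 8.48 RPKM in the wild-type libraries. Where it was read, the level varied by 1.22 times at most. Ppard had 28.7 RPKM in knock-out replicate 1 and was listed at 0 in the other 5 libraries, and Pparg, the adipocyte regulator, was listed at 0 in all 6. Nr1h3 (LXR alpha), the oxysterol sensor usually named for liver, has 8 annotated transcripts and was listed at 0 in every library. Its paralogue Nr1h2 (LXR beta) had 0, 0 and 1542 reads in the knock-out libraries, against 1960, 1946 and 1594 reads in the wild-type libraries. Nr1h4 (FXR), the bile acid receptor, had 188 reads in wild-type replicate 1 alone, and Nr1h5 was at 0 throughout.

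Nr1i2 (PXR), the sensor of foreign compounds, has 1 annotated transcript and lies on the minus strand of chromosome 16 from 38248323 to 38294824. It had 2.83, 2.53 and 3.38 RPKM in the knock-out libraries, against 1.12, 2.00 and 3.66 RPKM in the wild-type libraries. The knock-out values lay inside the wild-type range, and the lowest value was again that of wild-type replicate 1. Nr1i3 (CAR), the other xenobiotic sensor, varied least among the 8 receptors read in every library, with 6.57, 7.11 and 6.66 RPKM in the knock-out libraries, against 6.66, 5.49 and 7.30 RPKM in the wild-type libraries, a coefficient of variation of 9.53%. Its level is uncertain, because 72.5% of the exon bases of its main transcript Nr1i3-208 are also exon of Tomm40l, a mitochondrial outer membrane gene on the opposite strand, and the sources used here do not tell whether reads were counted by strand. Tomm40l had 1.95 to 2.15 times the reads of Nr1i3 in each of the 6 libraries.

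The RXR genes themselves, the shared partners of these sensors, were each read once or not at all. Rxra, the main RXR of the liver, had 3948 reads (96.5 RPKM) in wild-type replicate 1 and was listed at 0 in the other 5 libraries. All of these reads were on ENSMUST00000100251, which begins at the downstream start shown above. Rxrb had 1660 reads (45.8 RPKM) in knock-out replicate 3 alone, and Rxrg was listed at 0 throughout. These values do not measure the level of RXR in the other libraries.

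Among the receptors of retinoic acid, thyroid hormone and vitamin D, Thra was read in every library. Thra (thyroid hormone receptor alpha) had 9.44, 9.62 and 7.19 RPKM in the knock-out libraries, against 7.56, 6.22 and 9.40 RPKM in the wild-type libraries, with overlapping groups. Thrb, the form usually named as the main one of hepatocytes, was listed at 0 in all 6 libraries, and so was the vitamin D receptor Vdr. Rara (retinoic acid receptor alpha) had 11.1, 11.9 and 0 RPKM in the knock-out libraries, against 0, 14.6 and 11.1 RPKM in the wild-type libraries. Rarb, with 1 annotated transcript, was the lowest receptor read in all 6 libraries, with 10, 12 and 10 reads in the knock-out libraries, against 4, 4 and 10 reads in the wild-type libraries. Its RPKM did not overlap between the groups (0.163 to 0.200, against 0.0602 to 0.161) while its reads did, and it was too low to be tested. Of 5538 genes read in every library at a mean of 1 RPKM or more, 5.94% had groups that did not overlap. Rarg was listed at 0 throughout.

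Of the steroid receptors, Nr3c1, the glucocorticoid receptor through which cortisol-like hormones induce gluconeogenic genes, had 2732, 2756 and 0 reads in the knock-out libraries, against 3690, 3004 and 2894 reads in the wild-type libraries. In RPKM it had 71.4, 22.0 and 0 in the knock-out libraries, against 27.8, 21.7 and 22.3 in the wild-type libraries. The high RPKM of knock-out replicate 1 came with an assignment to a transcript of 1891 bases, where the other libraries used one of 6327 bases, while the reads of that library were the lowest above 0. Nr3c2, the mineralocorticoid receptor, had 390 reads in knock-out replicate 3, against 334 and 384 reads in wild-type replicates 2 and 3, and was listed at 0 elsewhere. Esr1 (estrogen receptor alpha) had 284 reads in knock-out replicate 1 alone, and Esr2 and Pgr were listed at 0 throughout.

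The clock receptors of the REV-ERB group repress and those of the ROR group activate the same target genes, among them Arntl. Nr1d1 (REV-ERB alpha) lies on the minus strand of chromosome 11 from 98767932 to 98775333 and had 15.5, 11.4 and 9.13 RPKM in the knock-out libraries, against 10.5, 7.22 and 7.05 RPKM in the wild-type libraries. The groups overlapped, since wild-type replicate 1 lay above the lowest knock-out library. All reads of Nr1d1 went to 1 transcript, of which 9.7% of the exon bases are shared with Thra on the opposite strand. Nr1d2 (REV-ERB beta) had 2720 reads in knock-out replicate 2, against 2984 reads in wild-type replicate 3, and 0 elsewhere. Rora had 9.21, 8.95 and 0 RPKM in the knock-out libraries, against 0, 7.72 and 8.16 RPKM in the wild-type libraries, and Rorb was listed at 0 throughout.

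Rora, Rara and Ppara were thus each listed at 0 in the same pair of libraries, knock-out replicate 3 and wild-type replicate 1. That pair was also the most frequent among all well-read loci with 2 zeros: 211 of 963 such loci (21.9%) were at 0 in it, against 3.74% to 7.48% for each of the other 14 pairs of libraries. The pair crosses the genotypes.

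The orphan receptors of the NR2 group had the highest levels among the receptors read in every library. Nr2f6 (EAR2), a repressor related to the COUP transcription factors, had 40.6, 84.0 and 49.5 RPKM in the knock-out libraries, against 41.6, 62.9 and 44.0 RPKM in the wild-type libraries. Its reads were 1824, 2285 and 2112 in the knock-out libraries, against 1268, 1890 and 2002 in the wild-type libraries, so the RPKM peak of knock-out replicate 2 was steeper than its reads, and that of wild-type replicate 2 had no counterpart in the reads. In both of those libraries all reads were assigned to Nr2f6-204, a shorter transcript not annotated as protein coding. Nr2c2 (TR4) had 61.0, 32.1 and 15.5 RPKM in the knock-out libraries, against 17.9, 14.4 and 28.0 RPKM in the wild-type libraries, a coefficient of variation of 62.5%, while its coefficient of variation in RPM was 19.9%. Both genes overlap a neighbour on the opposite strand: 41.2% of the exon bases of Nr2f6-201 are shared with Ocel1 and 46.2% of those of Nr2c2-201 with the ribosomal protein gene Mrps25, so their levels are uncertain. Nr2c1 had 746 reads in knock-out replicate 3 alone, Nr2f2 (COUP-TFII) had 190 reads in knock-out replicate 3, against 184 reads in wild-type replicate 3, and Nr2e1, Nr2e3 and Nr2f1 were listed at 0 throughout.

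Nr4a1 (NUR77), an immediate early receptor that is induced by stress and in activated macrophages, has 1 annotated transcript and had 1.96, 1.51 and 1.85 RPKM in the knock-out libraries, against 3.05, 1.37 and 1.73 RPKM in the wild-type libraries. The highest value was that of wild-type replicate 1, and how far cell composition bears on it was not tested. Nr4a2 and Nr4a3 were listed at 0 throughout. The small heterodimer partner Nr0b2 (SHP), a receptor without a DNA-binding domain that FXR induces, also has 1 annotated transcript, and it had 2 reads in knock-out replicate 1 and was listed at 0 in the other 5 libraries. At 1-transcript loci such zeros were rare, so Nr0b2 was at the edge of detection in these libraries. Its relative Nr0b1 (DAX1) was listed at 0 in all 6. Of the estrogen-related receptors, Esrra, a regulator of mitochondrial genes, had 742 reads in knock-out replicate 2, against 772 reads in wild-type replicate 1, and Esrrb and Esrrg were listed at 0 throughout. Nr6a1 had 193 reads in knock-out replicate 3, against 307 and 171 reads in wild-type replicates 1 and 2, all on a transcript not annotated as protein coding.

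**Figure D2:**
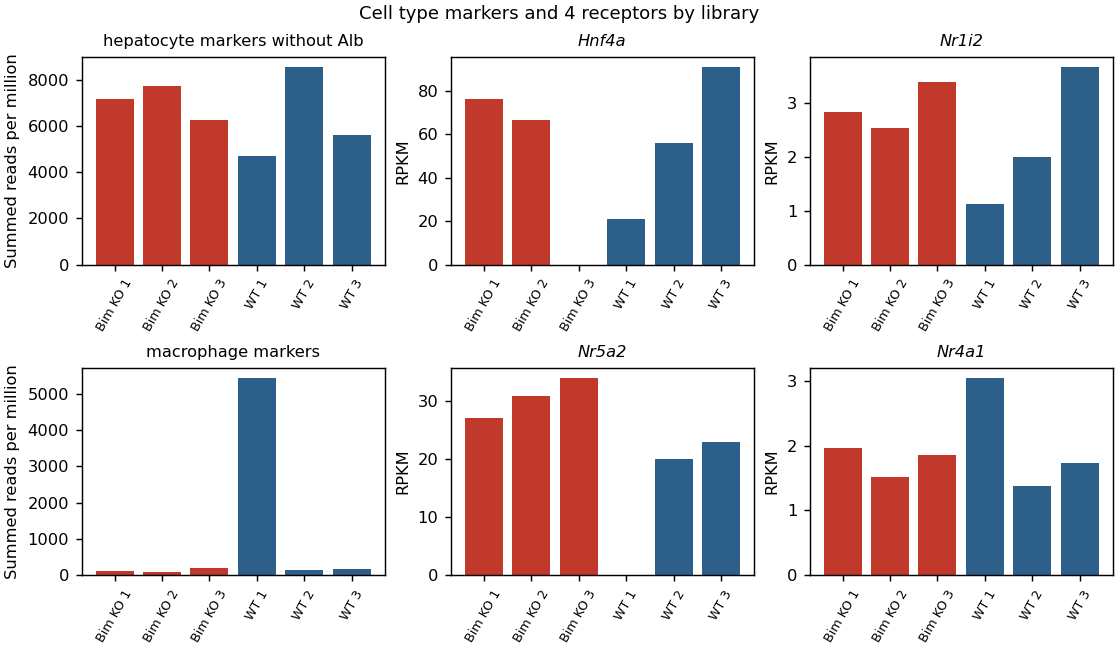
Summed RPM of 9 hepatocyte markers (Alb left out) and 12 macrophage markers, and RPKM of 4 receptors, in each Bim knock-out (red) and wild-type (blue) library; a missing bar is a value listed at 0. In wild-type replicate 1 macrophage markers reached 5450 RPM, Nr4a1 was highest at 3.05 RPKM, and Nr1i2 was lowest at 1.12 RPKM. Among the receptors read in every library, only these had their highest or lowest RPKM in it. With reads scaled to the longest transcript of the gene instead, Nr2f6 was also lowest in that library (27.3) and Nr2c2 highest (14.8). The same held for their reads (1268 and 2365). How far cell composition bears on receptor levels was not tested.

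Ranked by mean RPKM over the 6 libraries, the 8 receptors read everywhere ran from Nr2f6 (53.8 ± 16.9) and Nr2c2 (28.2 ± 17.6) through Nr1d1 (10.1 ± 3.15), Thra (8.24 ± 1.44) and Nr1i3 (6.63 ± 0.63) to Nr1i2 (2.59 ± 0.93), Nr4a1 (1.91 ± 0.60) and Rarb (0.136 ± 0.060; SD over 6 libraries of both groups). The ranges of neighbours overlapped except between Nr1i3 and Nr1i2 and between Nr4a1 and Rarb. The median over the 6920 genes read in every library was 10.1 RPKM, so Nr1d1 lay in the middle of that distribution, Nr2f6 at percentile 79.4 and Rarb at percentile 3.42. When the reads of a gene were scaled to its longest transcript instead, a choice made after seeing the data, Nr2c2 fell to 11.9 ± 2.13 and Nr2f6 to 42.0 ± 8.80, and the order of the 8 genes was kept. Of the partly read receptors, Nr1h2 had the highest median over the libraries that read it among those read in 2 or more libraries, at 98.7 RPKM, but at 42.3 when scaled to its longest transcript, below Hnf4a at 66.6. With zeros included, 22 of the 47 receptors averaged 1 RPKM or more.

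The transcript to which reads were assigned often differed between libraries. Of the 20 receptors read in 2 or more libraries, 6 changed their main transcript, namely Nr1d2, Nr1h2, Nr2f6, Nr3c1, Nr3c2 and Thra. Nr1h2 showed this most: its reads went to a protein-coding transcript of 1450 bases in knock-out replicate 3, against a retained-intron transcript of 547 bases in wild-type replicate 1 and one of 1853 bases in wild-type replicate 2. In wild-type replicate 3, 80.5% of them went to the transcript of 547 bases. Its reads differed by 1.27 times at most over those libraries, and its RPKM by 3.57 times. Over 98 values of a receptor in a library that read it, 9 had most of their reads on transcripts not annotated as protein coding, in 4 genes (Nr1d2, Nr1h2, Nr2f6 and Nr6a1). For Thra, the share on Thra-203, a transcript of 1240 bases, was 42.0%, 22.9% and 4.8% in the knock-out libraries, against 7.3%, 0% and 65.8% in the wild-type libraries.

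**Figure D3:**
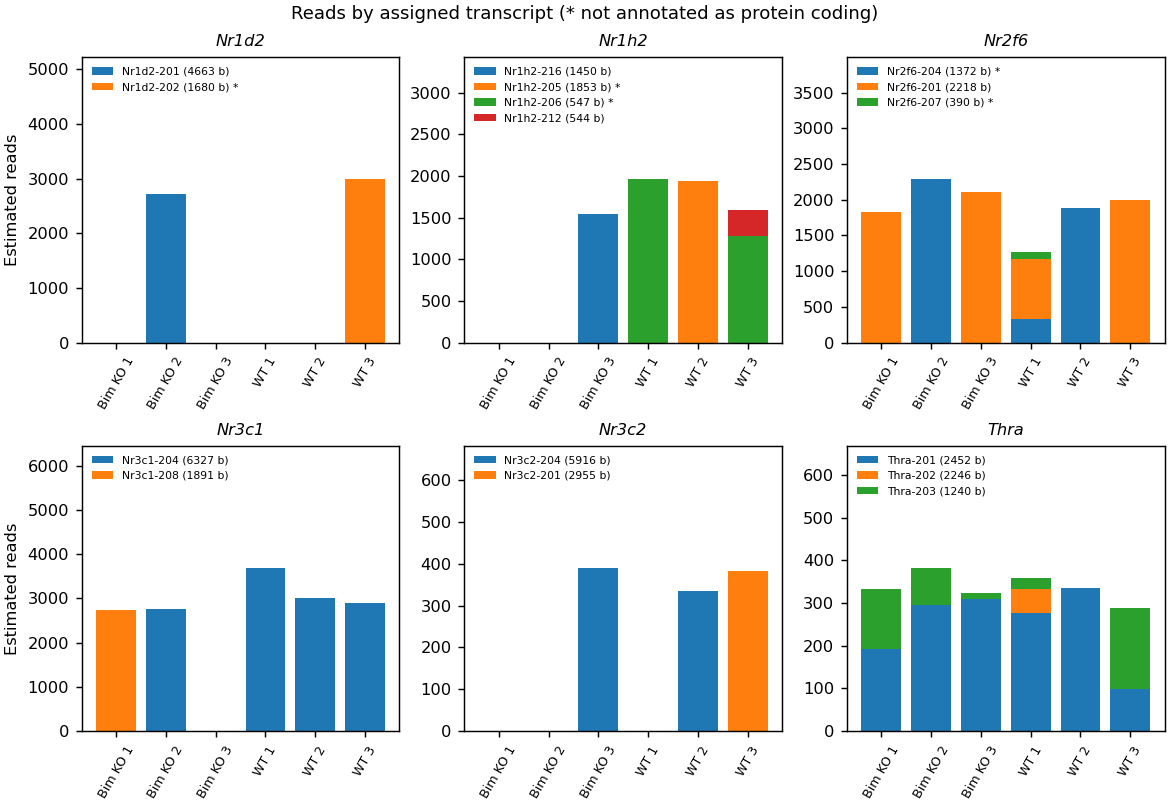
Estimated reads of the 6 receptors whose main transcript changed between libraries, stacked by the transcript they were assigned to, with transcript lengths in bases; Bim knock-out libraries stand left of wild-type libraries and an empty column is a value listed at 0. For Nr1h2 the stacks are similar in height in the 4 libraries that read it, from 1542 to 1960 reads, but differ in color.

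The comparison of knock-out with wild-type asked whether loss of BIM was accompanied by a change in receptor levels. None of the receptors was called. Over 5538 genes that were read in every library and averaged 1 RPKM or more, limma on log2(RPKM + 1) called 0 genes (0%) at an adjusted p below 0.05, and 130 (2.35%) had an unadjusted p below 0.05. Of the 7 receptors in that test, 0 had an unadjusted p below 0.05 and 0 had groups that did not overlap, where 5.94% of all tested genes had such groups. The difference was above 0 for 6 of them and below 0 for Nr4a1, with a median of 0.18 on the log2(RPKM + 1) scale, against 0.00129 over all genes tested, of which 50.2% were above 0. Voom on the estimated reads divided by 2 also called 0 genes, with 72 at an unadjusted p below 0.05.

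**Figure D4:**
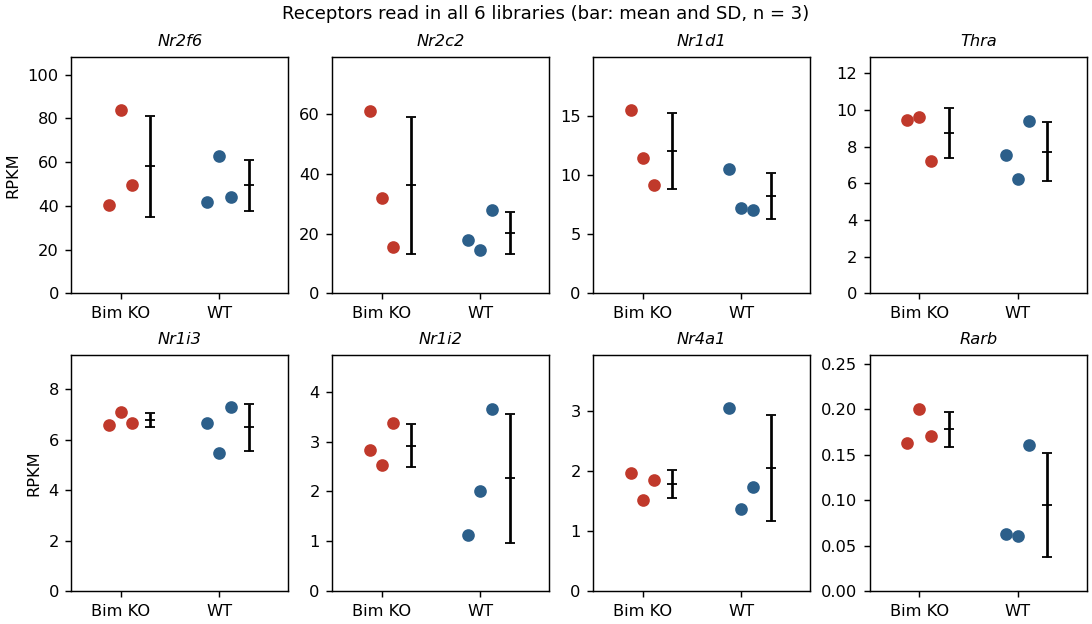
RPKM of the 8 receptors read in all 6 libraries, each point 1 library, with the mean and SD beside it (n = 3 for each of Bim knock-out, red, and wild-type, blue). Rarb is the gene whose points do not overlap between the groups, at 0.163 to 0.200 RPKM in knock-out libraries, against 0.0602 to 0.161 RPKM in wild-type libraries. Its reads do overlap (10, 12 and 10, against 4, 4 and 10), and it was too low to be tested. Of the 5538 genes tested, 5.94% had groups that did not overlap.

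Nr1d1 had the smallest unadjusted p among the 7. It averaged 12.0 ± 3.23 RPKM in knock-out hepatocytes and 8.24 ± 1.92 RPKM in wild-type hepatocytes (SD, n = 3 each), a difference of 0.49 (SE 0.23; 95% interval -0.08 to 1.05; limma adjusted p = 0.996, unadjusted 0.0784). The difference was 0.30 without knock-out replicate 1, and 0.22 without knock-out replicate 1 and wild-type replicate 2. It was 0.65 without knock-out replicate 3, and likewise 0.65 without wild-type replicate 1. Nr2c2 had the largest fitted difference, 0.67 (SE 0.51, interval -0.58 to 1.91), at 36.2 ± 23.0 and 20.1 ± 7.07 RPKM in knock-out and wild-type. It turned to -0.12 on a scale of RPM, without division by transcript length. Nr1i2 differed by 0.33 (interval -0.38 to 1.04), which was 0.06 without wild-type replicate 1 and 0.63 without wild-type replicate 3. Nr4a1 differed by -0.10 (interval -0.64 to 0.43), which was 0.12 without wild-type replicate 1 and -0.27 without wild-type replicate 2. Nr2f6 differed by 0.18 (interval -0.57 to 0.94) and Thra by 0.17 (interval -0.27 to 0.60). The narrowest interval was that of Nr1i3, 0.06 (interval -0.23 to 0.36), which lies within a change of 1 log2 unit either way. The intervals of Nr2c2, Nr1d1 and Nr1i2 reach beyond 1 log2 unit on the positive side, so a change of that size is not excluded for them. For low genes such as Nr4a1, 1 unit on this scale is more than a 2-fold change of RPKM. An interval within 1 unit therefore need not exclude a 2-fold change.

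**Figure D5:**
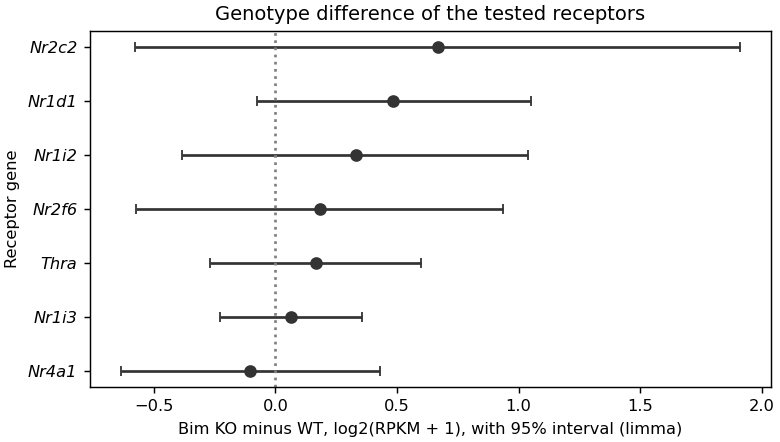
Fitted difference of each of the 7 tested receptors (Bim knock-out minus wild-type) on the log2(RPKM + 1) scale, with the 95% interval from limma. All 7 intervals include 0, and they are widest for Nr2c2 (-0.58 to 1.91) and narrowest for Nr1i3 (-0.23 to 0.36).

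With exact zeros kept as values, 0 of the 22 receptors in the test were called, against 87 of 11021 genes (0.789%). Among the receptors 12 had a difference above 0 (47.8% of all genes), 1 had an unadjusted p below 0.05 (1.89% of all genes) and 1, Nr5a2, had groups that did not overlap (5.46% of all genes). Every one of the 87 calls set a group with 0 in each library against a group read in each library, the pattern that exact zeros can make. Leaving out any 1 library, which left 2 in its group, raised the count to between 171 and 198 genes. Nr1h2, the receptor with the small p, was at 0 in 2 of 3 knock-out libraries and in none of the wild-type ones. It differed by -4.80 (limma unadjusted p = 0.0466) with an adjusted p of 0.941, and 0.034 once knock-out replicate 3, the library that read it, was left out. In RPKM it had 0, 0 and 55.3 in the knock-out libraries, against 171.0, 48.0 and 142.1 in the wild-type libraries.

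The genes that the receptors work with were described from lists chosen for this work. Of 23 coregulators, 8 were read in every library and tested, and 0 were called in either direction, with 4 above 0 and a median difference of -0.01. Kdm1a, a histone demethylase, averaged 85.0 ± 20.5 RPKM in knock-out hepatocytes and 103.7 ± 12.2 RPKM in wild-type hepatocytes (SD, n = 3 each). Ncor1 had 7641, 7629 and 7599 reads in the knock-out libraries, against 7054, 7533 and 8473 reads in the wild-type libraries. The coactivator Ppargc1a was listed at 0 in all 6 libraries.

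The targets of the fatty acid and drug sensors gave no calls. In the same test 6 of 8 hepatocyte markers had a difference above 0, with a median of 0.22, and 0 of 7 macrophage markers did, with a median of -1.38. Their part in the differences of the target lists was not tested. Of 20 PPAR alpha targets, 10 were tested, 9 had a difference above 0 (50.2% of all genes tested) and 0 were called, with a median of 0.25. Vnn1, a pantetheinase, averaged 19.8 ± 6.02 RPKM in knock-out hepatocytes and 11.2 ± 6.87 RPKM in wild-type hepatocytes (SD, n = 3 each), where wild-type replicate 1 had 3.44 RPKM. Acot2, a mitochondrial thioesterase, measured 4.84 ± 1.10 and 3.72 ± 0.50 RPKM. Of 21 CAR and PXR targets, 10 were tested, 8 had a difference above 0 (50.2% of all genes tested), 2 had an unadjusted p below 0.05 (2.35% of all genes tested) and 0 were called, with a median of 0.42. These were Cyp2b9, a cytochrome P450 which averaged 9.27 ± 0.32 RPKM in knock-out hepatocytes and 5.20 ± 1.48 RPKM in wild-type hepatocytes (unadjusted p = 0.00505, limma adjusted p = 0.996), and Cyp2c37, at 42.1 ± 8.19 and 24.8 ± 10.6 (unadjusted p = 0.045, limma adjusted p = 0.996; SD, n = 3 each). Cyp3a11, the textbook PXR target, had 5141, 5550 and 4529 reads in the knock-out libraries, against 4531, 6833 and 3198 reads in the wild-type libraries.

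Few genes of the bile acid and oxysterol axes could be tested. Of 13 genes of the FXR axis, 2 were tested and 0 called. Slc10a1, the bile acid uptake transporter, averaged 3.27 ± 0.14 RPKM in knock-out hepatocytes and 2.84 ± 0.44 RPKM in wild-type hepatocytes, and the bile acid enzyme Cyp8b1 0.986 ± 0.316 and 1.02 ± 0.25 (SD, n = 3 each). Cyp7a1, the rate-limiting enzyme of bile acid synthesis, was listed at 0 in every library. Of 10 LXR targets, 3 were tested and 0 called. With zeros kept 1 of 6 was called higher, against 0.372% of all genes tested. This was Lpcat3, a phospholipid-remodelling enzyme, with 4178, 3356 and 3772 reads in the knock-out libraries and 0 in each wild-type library (limma adjusted p = 0.0028). With the transcript that has the most reads taken alone, the adjusted p of Lpcat3 was 0.888.

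Targets of the hormone receptors and of HNF4A gave no calls. Of 15 glucocorticoid receptor targets 3 were tested, and all 3 had a difference above 0 (50.2% of all genes tested). But the difference of Errfi1 was -0.33 with the transcript that has the most reads, and that of Igfbp1 was -0.15 without wild-type replicate 1. Errfi1, a feedback inhibitor of EGF receptor signalling, averaged 137.5 ± 89.9 RPKM in knock-out hepatocytes and 80.7 ± 20.2 RPKM in wild-type hepatocytes, and Igfbp1, a secreted binding protein of insulin-like growth factors, 57.6 ± 28.7 and 41.8 ± 32.0 (SD, n = 3 each). In wild-type replicate 1 Igfbp1 had 5.88 RPKM. Of 13 genes of thyroid hormone and retinoid metabolism 3 were tested, with the lipogenic enzyme Me1 at 164.5 ± 18.8 and 132.9 ± 24.0 RPKM and the plasma retinol carrier Rbp4 at 965.5 ± 52.3 and 878.1 ± 217.4 RPKM in knock-out and wild-type. Of 14 HNF4A targets 10 were tested and 7 had a difference above 0 (50.2% of all genes tested), with a median of 0.23. Apoa2, an apolipoprotein of high-density lipoprotein, averaged 3024.5 ± 515.9 RPKM in knock-out hepatocytes and 2307 ± 179.2 RPKM in wild-type hepatocytes (SD, n = 3 each).

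Of 15 clock genes, 5 were tested, 3 had a difference above 0 (50.2% of all genes tested) and 0 were called. With zeros kept 1 of 8 was called lower, against 0.417% of all genes tested. This was Arntl (BMAL1), the core activator that REV-ERB represses and ROR activates, with 0 reads in each knock-out library, against 626, 972 and 664 reads in the wild-type libraries (limma adjusted p = 0.00427; 0.888 with the transcript that has the most reads taken alone). The clock-controlled repressor Nfil3 had 848, 916 and 734 reads in the knock-out libraries, against 732, 964 and 820 reads in the wild-type libraries, with overlapping groups. Per1 was listed at 0 in all 6 libraries, and Dbp, an output gene of the clock, had at most 22 reads in any library.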

How the data were processed

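Polyadenylated RNA of 6 hepatocyte samples was sequenced as single-end libraries, per the labels' protocols. The submitters' processing notes name TopHat2 (version 2) and GRCm38 (mm10). For each of 118492 transcripts the authors deposited estimated counts of reads and RPKM. How reads were assigned to transcripts, and whether by strand, is not stated in the sources used. Locus totals were whole (tolerance 0.001) for 99.46% to 99.66% of loci. Sample titles gave groups and replicate numbers.

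Transcript values were summed per gene, and 47993 of 48353 Ensembl identifiers matched a symbol. Knock-out was compared with wild-type by limma 3.58.1 in R 4.3.3 (trend, two-sided, Benjamini-Hochberg adjustment) on log2(RPKM + 1), at a mean of 1 RPKM or more, in genes read in all 6 libraries and again with zeros kept. Fold changes of low genes are understated on this scale. The fit was tested on simulated data. Alternatives varied the pseudocount, filter, unit, transcript choice, zeros, replicate block and libraries left out. Transcript types and exons came from GENCODE M21, and windows from RefSeq (GRCm38.p6). The members, lists, tests and alternatives were chosen with earlier results of these data known. Genes were named by rule: all members, Bcl2l11, informative markers and, of each list, the genes called or else the 2 with the smallest p, of which some are not reported here. Other list genes (Ncor1, Ppargc1a, Cyp3a11, Cyp7a1, Nfil3, Per1, Dbp) and overlapping neighbours were chosen after their values were seen. Python 3.11.15 (pandas 2.3.3, numpy 2.4.6, matplotlib 3.10.9) handled tables and plots.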

Additional observations from a re-analysis of the deposited data

How the results depend on the processing

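In genes read in every library, 0 genes were called under each of the 17 alternatives run. Differences of uncalled genes changed sign in these cases. With the transcript that has the most reads, Nr1i3 was -0.0462, Nr2c2 -0.127 and Errfi1 -0.326. Nr2c2 was -0.117 on the reads-per-million scale and -0.119 with voom on the reads divided by 2. Leaving out each library in turn gave ranges of -0.0362 to 0.142 for Nr1i3, -0.115 to 0.40 for Nr2f6, -0.266 to 0.121 for Nr4a1, -0.149 to 1.51 for Igfbp1 and -0.0482 to 0.318 for Rbp4. Cyp8b1 passed the filter in only 2 such fits, at 0.112 without knock-out replicate 2 and -0.134 without wild-type replicate 1. Without knock-out replicate 1 and wild-type replicate 2, a choice made after seeing the data, Nr1i3 was -0.0165, Nr2c2 -0.00202 and Thra -0.0174. The causes were not tested.

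With exact zeros kept, 87 genes were called, 171 to 198 without any single library, 298 without both interferon-high libraries, and 0 with zeros at loci with several transcripts taken as missing, where 197 had an unadjusted limma p below 0.05. Replicate numbers did not pair the samples (correlations of same-numbered deviations -0.158, -0.0488 and -0.0053). Across numbers they were 0.312 for knock-out replicate 1 with wild-type replicate 2 and 0.224 for knock-out replicate 3 with wild-type replicate 1. Knock-out replicate 2 with wild-type replicate 3 had 0.145, and the remaining pairs had -0.137, -0.0628 and -0.271. Pairing under other numbers was not tested, and the main fits treat the libraries as unpaired. With the replicate block limma called 0 genes with zeros kept (198 at an unadjusted p below 0.05), and 0 over genes read in every library (157). Under the block the adjusted p was 0.0984 for Lpcat3 and 0.156 for Arntl, and Lpcat3 had 0.0545 without both interferon-high libraries. Receptors averaging 1 RPKM or more numbered 20 to 22 without any single library. Exact zeros limit what can be said of the 39 receptors not read in all 6 libraries.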
